A study of Mus musculus with 37 samples.

Results

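The strains described here are the 35 BXD strains, divided by whether their brown adipose tissue (BAT) contained the transcript *H2-Ea-ps*, the alpha chain of the class II molecule H2-E. The groups were defined by the measured level of *H2-Ea-ps* alone: a strain above the midpoint of the C57BL/6J and DBA/2J arrays was called high and a strain below it low, which gave 11 high and 24 low strains among the 37 arrays of the series. All other array probe sets were then compared between the groups, with the *H2-Ea-ps* class standing in for the parental haplotype at the major histocompatibility complex (MHC), since strain genotypes were not used here. BXD lines descend from crosses of C57BL/6J with DBA/2J followed by inbreeding, so each strain is homozygous for 1 parental allele or the other at nearly every locus. The high strains were BXD50, BXD56, BXD62, BXD68, BXD69, BXD70, BXD79, BXD80, BXD87, BXD99 and BXD103, and the low strains were the other 24. All strains and both parents were male mice on a chow diet, fasted overnight and killed at 29 weeks of age. RNA from about 5 mice of a strain was combined into 1 pool and hybridised to 1 Affymetrix array, so an array is a strain mean, there is no replicate within a strain, and the strain is the unit of every test. Values are in the rescaled units of the deposited table, in which every array has a mean of 8 and a standard deviation (SD) of 2.

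MHC class II molecules are pairs of an alpha and a beta chain that carry peptides to the surface of dendritic cells, macrophages and B cells, where CD4 T cells read them. The mouse has 2 such classical pairs, H2-A (from *H2-Aa* and *H2-Ab1*) and H2-E (from *H2-Ea* and *H2-Eb1*), and the C57BL/6 haplotype is known to lack the H2-E alpha chain because of a deletion at the start of its gene. The class II genes lie on chromosome 17 together with class I genes, which present peptides to CD8 T cells, and with the class III region between them, which holds complement and many unrelated genes. In adipose tissue these molecules come mostly from resident immune cells.

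Class II promoters are known to carry a Y box, an inverted CCAAT motif bound by the factor NF-Y. *H2-Aa* and *H2-Eb1* are shown as examples of the class II neighbours whose levels are set against *H2-Ea-ps* here. The promoter of *H2-Ab1*, another such neighbour, is not shown. *H2-Q10* is shown as the class I gene that differed most. The sequences are the 150 bases before the annotated start in RefSeq's GRCm38.p6 assembly, which is of C57BL/6J, on the strand of the gene and read from 5′ to 3′. Capitals mark the letters ATTGG and CCAAT. *H2-Aa* lies on the minus strand at chr17:34287824-34287973, *H2-Eb1* on the plus strand at chr17:34305717-34305866 and *H2-Q10* on the plus strand at chr17:35469939-35470088. RefSeq's promoter table held no entry for *H2-Ea*.
H2-Aa: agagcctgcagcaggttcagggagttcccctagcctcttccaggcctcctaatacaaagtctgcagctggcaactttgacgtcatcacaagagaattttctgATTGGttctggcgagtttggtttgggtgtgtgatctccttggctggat
H2-Eb1: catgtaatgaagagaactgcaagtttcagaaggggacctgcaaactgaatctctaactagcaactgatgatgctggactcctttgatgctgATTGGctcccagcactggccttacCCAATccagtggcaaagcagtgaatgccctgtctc
H2-Q10: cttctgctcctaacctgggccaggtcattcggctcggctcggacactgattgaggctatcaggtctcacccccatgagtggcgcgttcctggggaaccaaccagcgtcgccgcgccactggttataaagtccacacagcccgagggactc
The ATTGG of *H2-Aa* begins 48 bases before the start and that of *H2-Eb1* 59 bases before it. *H2-Eb1* also holds CCAAT, the same motif on the other strand, and neither form occurs in the *H2-Q10* window. Over the 32851 promoters in RefSeq's table, 24.5% hold ATTGG or CCAAT in the same window. These are matches of letters and not shown binding sites.

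*H2-Ea-ps* split the strains into groups with a wide empty space between them. In the 24 low strains its level ran from 6.66 to 8.06 with a median of 7.53, and C57BL/6J lay at 7.55. In the 11 high strains it ran from 11.73 to 13.62 with a median of 12.55, and DBA/2J lay at 12.14. The midpoint of the parents was 9.84. The strain just below it was BXD98 at 8.06 and the strain just above it was BXD87 at 11.73, so 3.67 units separated the groups and the middle of that gap assigns every strain in the same way. Group means were 12.54 ± 0.52 (SD, n = 11) and 7.51 ± 0.31 (SD, n = 24), a difference of 5.03 units that the grouping itself fixed and that was therefore not tested. Probe sets of olfactory receptors, genes not thought to be transcribed in fat, served as background with a 95th percentile of 7.94 units, and 22 of the low strains lay below it. The low level is therefore not distinguishable from background, and RefSeq lists the gene in the C57BL/6J reference as a transcribed pseudogene.

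**Figure D1:**
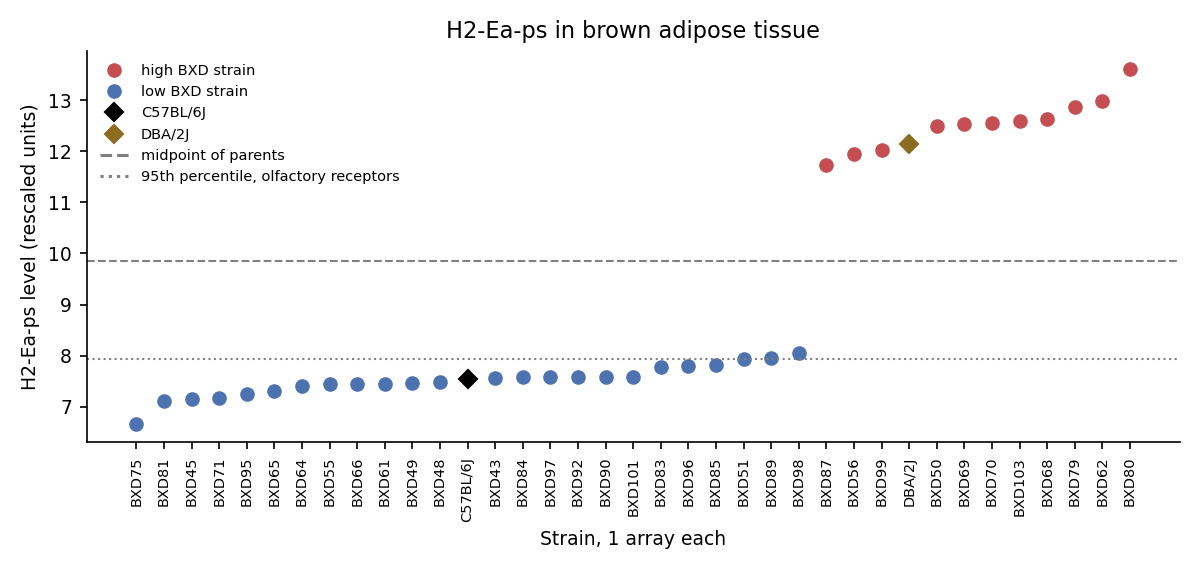
*H2-Ea-ps* level in rescaled units (vertical axis) on the array of each strain (horizontal axis, ordered by level), with the midpoint of the parents as a dashed line and the 95th percentile of olfactory receptor probe sets as a dotted line. The 11 high strains lie between 11.73 and 13.62, around DBA/2J at 12.14, and the 24 low strains between 6.66 and 8.06, around C57BL/6J at 7.55.

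Between high and low strains, 38 of the 41154 other probe sets differed at an adjusted p of at most 0.05 (limma with Benjamini-Hochberg adjustment over all probe sets), which is 0.0923%. Of these, 23 were higher in the high strains (0.0559% of those tested) and 15 were lower (0.0364%). By unadjusted p under 0.05, 4.44% of all probe sets would be counted. The 29 called probe sets with a gene name stood for 24 genes, and the other 9 have no name in the table. Of the 24 genes, 22 lie on chromosome 17, where 27 of 1317 probe sets were called (2.05%), against 2 of 25685 on the other chromosomes (0.00779%). Chromosome 17 also stood out without a threshold on adjusted p, with 184 of its 1317 probe sets under an unadjusted p of 0.05 and between 0.0% and 5.96% on every other chromosome. Neighbouring genes on chromosome 17 tend to be inherited together and are not independent, so these shares describe where the differences lie.

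On chromosome 17 the called probe sets lay on both sides of *H2-Ea-ps* and reached far from it. Positions are given as the number of protein-coding genes from *H2-Ea-ps* in RefSeq's order, negative towards the start of the chromosome. Within 100 genes on either side, 12 of 265 probe sets were called (4.53%), for 10 genes, while within 20 genes 1 of 46 was called (2.17%), that of *C4a*. The rest of the chromosome had 15 of 1052 (1.43%). Without regard to calls, the median absolute difference was 0.084 units within 20 genes, 0.105 within 50, 0.075 within 100 and 0.054 over the rest of the chromosome. The called genes fell into a group from position -475 to -393, which held 7 genes with 9 called probe sets, a group of 3 genes from -270 to -259, the pair *Glo1* and *Dnahc8* at -100 and -99, and 10 genes from -29 to 123. Beyond position 123 no probe set was called. The share of probe sets under an unadjusted p of 0.05 was 21.9% from position -100 to -1, 22.8% from 0 to 99, 20.9% from -300 to -201 and 3.42% from 300 to 399.

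**Figure D2:**
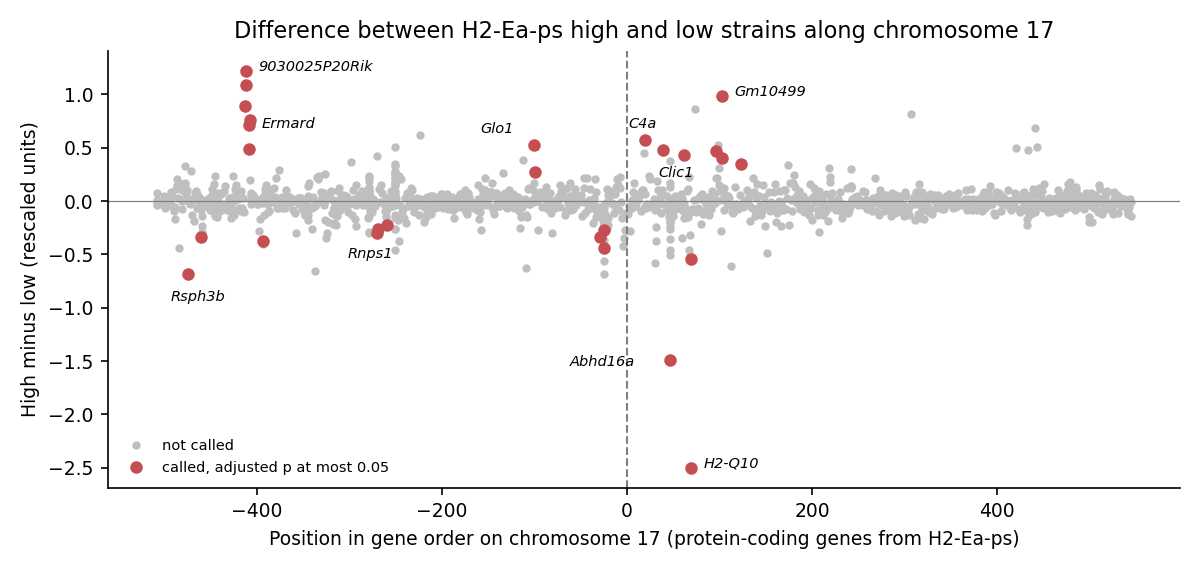
High minus low in rescaled units (vertical axis) for the probe sets of chromosome 17 against their place in gene order from *H2-Ea-ps* (horizontal axis, dashed line at 0); red points were called at an adjusted p of at most 0.05. The called points lie between positions -475 and 123, with *H2-Q10* the lowest at -2.50 and a probe set of *9030025P20Rik* the highest at 1.22.

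The transcript with the largest difference was *H2-Q10* (position 69), a class I molecule that is secreted rather than held on the cell surface and is made chiefly in the liver. It ran from 9.44 to 11.48 in the high strains, with a median of 10.46, and from 12.21 to 13.59 in the low strains, with a median of 12.93. The groups did not overlap, every high strain lying below every low strain. The difference was -2.50 ± 0.15 units (SE, n = 11 against 24; limma, adjusted p = 4.78e-14), which would be 5.67-fold if the log2 values had an SD of 2 before rescaling. A second, dimmer probe set of *H2-Q10* was also lower in the high strains, by -0.54 ± 0.11 (SE, adjusted p = 0.0320 in limma), with overlapping groups. DBA/2J lay at 10.41 among the high strains, whereas C57BL/6J at 12.06 lay slightly below all low strains. Liver transcripts were abundant on 2 arrays, BXD70 and DBA/2J, with albumin (*Alb*) at 14.96 and 13.93 against at most 11.16 on the other BXD arrays. *H2-Q10* lay at 10.34 in BXD70, close to the median of its group, and without BXD70 the difference was -2.49 (adjusted p = 4.35e-13 in limma). The high strain nearest to the low strains was BXD62, at 11.48, with *Alb* at 7.92. Whether the *H2-Q10* probes also read other class I genes, or match the parental alleles unequally, was not tested.

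Groups without overlap were rare: 5 of 41154 probe sets (0.0121%), of which 3 are unnamed copies with identical values. Besides *H2-Q10* and that triplet, the remaining one was 1 probe set of *Gps1*, a subunit of the COP9 signalosome encoded on chromosome 11. It ran from 11.68 to 12.86 in the high strains (median 12.09) and from 10.74 to 11.67 in the low strains (median 11.07). The smallest distance between the groups, from BXD66 at 11.67 to BXD56 at 11.68, was within the spread of either group. The difference was 1.11 ± 0.11 (SE; limma, adjusted p = 8.82e-09). The table lists 19 probe sets for *Gps1*, and the other 18 differed by -0.23 to 0.23 with none called. The brightest of them differed by 0.11. With the mean of all 19 probe sets the difference was 0.08 and was not called, so the call belongs to a single probe set and not to the gene's transcript as a whole. The unnamed triplet was 0.98 ± 0.07 higher in the high strains (SE; limma, adjusted p = 1.48e-12), from 9.05 to 9.91 against 8.15 to 8.85.

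*Abhd16a*, a lipase of phosphatidylserine in the class III region (position 46), showed the same reliance on 1 probe set. That probe set ran from 8.83 to 10.63 in the high strains (median 9.75) and from 10.47 to 11.75 in the low strains (median 11.18). All high strains but BXD99 lay below every low strain. The difference was -1.49 ± 0.14 (SE; limma, adjusted p = 8.82e-09). The other 16 probe sets of *Abhd16a* differed by -0.51 to 0.37, with a median of -0.14 and none called. The brightest was lower in the high strains by -0.46 (adjusted p = 0.0606 in limma), just outside the threshold, and the mean over the gene's probe sets differed by -0.21 and was not called. For *H2-Ke2* (now *Pfdn6*), a subunit of the chaperone prefoldin at position -25, 2 of 10 probe sets were called, at -0.27 and -0.44, and the other 8 differed by -0.68 to -0.04, all in the same direction. Arrays measure hybridisation to fixed probes, so a sequence difference between the parental alleles under a probe and a difference in the amount of RNA cannot be told apart. Over the 24 called genes the brightest probe set was called for 19 and not for 5, which were *Gps1*, *Abhd16a*, *H2-Ke2*, *Riok2* and *Ddx39b*.

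**Figure D3:**
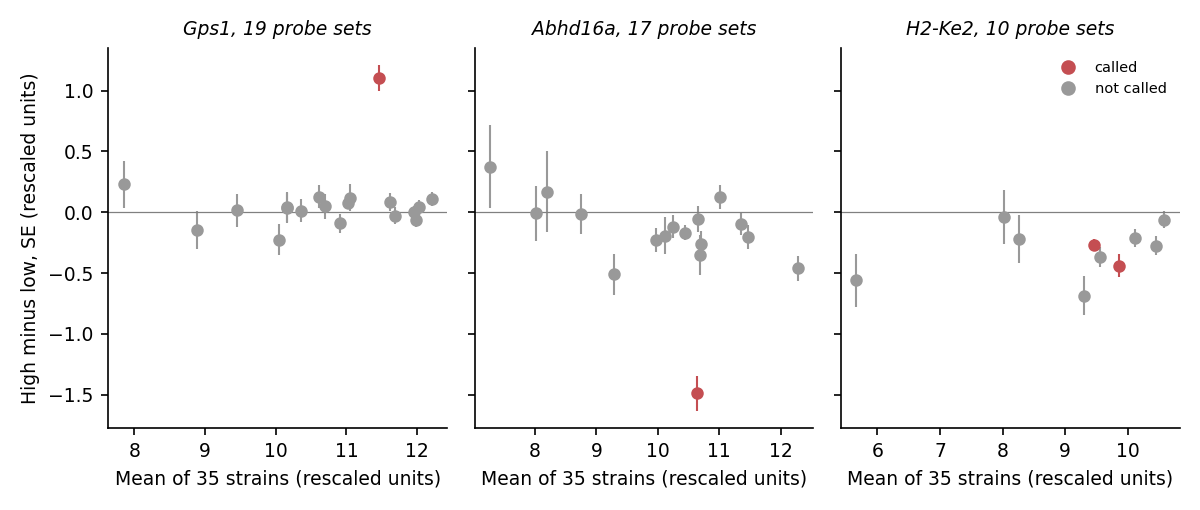
High minus low with its SE in rescaled units (vertical axis) against the mean level over 35 strains (horizontal axis) for each probe set of *Gps1*, *Abhd16a* and *H2-Ke2*, called probe sets in red. A single probe set of *Gps1*, at 1.11, and a single one of *Abhd16a*, at -1.49, stand away from the others of the same gene, whereas the 10 of *H2-Ke2* lie together below 0.

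*Abhd16a* aside, the called genes of the class III region were higher in the high strains. *Clic1* (position 39), a chloride intracellular channel protein, ran from 9.25 to 10.01 in the high strains (median 9.50) and from 8.73 to 9.59 in the low strains (median 9.07). The groups overlapped, with 4 high strains above all low strains, and the difference was 0.48 ± 0.09 (SE; limma, adjusted p = 0.00696). *C4a* (position 20), a complement gene nearly identical to its neighbour *C4b*, differed by 0.57 ± 0.11 (SE; limma, adjusted p = 0.0136), though its highest value, 7.06 in BXD70, was below the olfactory receptor background. *C4b* itself, at 11.07 ± 0.30 (SD, n = 11) against 10.61 ± 0.49 (SD, n = 24), differed by 0.45 and did not pass the adjusted threshold. Probes of the *C4* pair may read both copies. *Ddx39b* (position 62), an RNA helicase of splicing and mRNA export, was called at 0.43 for 1 of 3 probe sets, while the brightest gave -0.15 and was not called.

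Towards the class I end of the MHC, *H2-T24* (position 96), a class I molecule of the H2-T group, was higher in the high strains by 0.47 ± 0.10 (SE; limma, adjusted p = 0.0255). Both probe sets of *Gm10499* (position 103), a predicted gene, were higher, by 0.41 for the brighter and 0.99 for the dimmer one, whose mean of 7.17 lay below background. The brighter ran from 11.51 to 12.55 in the high strains and from 11.11 to 11.68 in the low strains, with 9 of 11 high strains above all low strains (limma, adjusted p = 0.00298). *Ppp1r11* (position 123), an inhibitor of protein phosphatase 1, was 0.35 higher with 8 of 11 high strains above all low strains (limma, adjusted p = 0.00697). *BC051226* (position -29), whose function is not given here, lies on the other side of *H2-Ea-ps* and was lower, with high minus low at -0.34 ± 0.07 (SE; limma, adjusted p = 0.0124).

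*Glo1*, glyoxalase 1, which clears methylglyoxal formed during glycolysis, lies at position -100, and the parents are known to differ in the copy number of a segment that contains it. It ran from 10.09 to 11.16 in the high strains (median 10.84) and from 9.74 to 11.003 in the low strains (median 10.20), with DBA/2J at 10.96 and C57BL/6J at 10.28. The ranges overlapped, with the low strain BXD98 at 11.003 and the high strain BXD79 at 10.09 farthest into the other group. The difference was 0.52 ± 0.10 (SE; limma, adjusted p = 0.0105). Its neighbour *Dnahc8* (now *Dnah8*), a dynein heavy chain of cilia and sperm tails, differed by 0.28 (limma, adjusted p = 0.0454) at a level below background, and was called in only 9 of the 35 fits that left out 1 strain.

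Another 4 called genes were lower in the high strains. *Brp44l* (now *Mpc1*), a subunit of the mitochondrial pyruvate carrier and the brightest called transcript, ran from 14.53 to 15.03 in the high strains (median 14.74) and from 14.74 to 15.37 in the low strains (median 15.14). The groups overlapped, and the difference was -0.34 ± 0.06 (SE; limma, adjusted p = 0.0136). Its other probe set differed by -0.09 and was not called, and the mean of both lost the call. *Eci1*, an isomerase needed for the oxidation of unsaturated fatty acids, was lower by -0.26 ± 0.05 (SE; limma, adjusted p = 0.0307), from 13.26 to 13.74 against 13.46 to 13.99. *Tsc2*, tuberin, a brake on the growth kinase complex mTORC1, was lower by -0.23 ± 0.04, with 7 of 11 high strains below all low strains (SE; limma, adjusted p = 0.00393). *Rnps1*, an RNA-binding protein of splicing, was lower by -0.30 ± 0.05, with 8 of 11 high strains below all low strains (SE; limma, adjusted p = 0.00298). With the skeletal muscle list as a covariate the adjusted p was 0.0602 for *Brp44l* and 0.125 for *Eci1* in limma, and both lost the call. *Rnps1*, *Eci1* and *Tsc2* lie close together, at positions -270, -269 and -259.

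In the group farthest from *H2-Ea-ps*, 4 genes were higher in the high strains and 3 were lower, *Brp44l* among the latter. Both probe sets of *9030025P20Rik* (position -412), a gene of unknown function, were higher, by 1.22 for the dimmer, whose mean of 7.50 lay below background, and by 1.09 for the brighter. The brighter ran from 10.83 to 11.70 in the high strains (median 11.16) and from 9.50 to 11.27 in the low strains (median 9.92; limma, adjusted p = 0.00119). *Ermard* (position -408), a membrane protein of the endoplasmic reticulum, ran from 11.04 to 11.47 in the high strains and from 10.06 to 11.40 in the low strains, a difference of 0.76 ± 0.12 (SE; limma, adjusted p = 0.00121). A dimmer probe set of *Ermard* differed by 0.20 and was not called, and the mean of both kept the call at 0.48. In both genes the low strains were themselves divided. BXD45, BXD51, BXD64, BXD75 and BXD98 had *Ermard* between 11.03 and 11.40, within or next to the range of the high strains, whereas the other 19 low strains lay between 10.06 and 10.48. The same 5 low strains fell on the DBA/2J side of the parental midpoint for *9030025P20Rik*. *Gm3417*, a predicted gene (0.89), and *Tcte3*, a dynein light chain of the testis (0.72 and 0.49), were also higher, while *Rsph3b*, a radial spoke protein of cilia (-0.68), and *Riok2*, a kinase of ribosome assembly (-0.38), were lower. *Rsph3b* and *Riok2* were the weakest of the group, each with an adjusted p of 0.0397 in limma and called in 9 and 14 of the 35 fits that left out 1 strain.

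Single strains decided the weaker calls. Of the 24 genes, 16 were called without any single strain. *Brp44l* lost the call without BXD103 (adjusted p = 0.0512 in limma), *Eci1* without BXD56, BXD62, BXD68, BXD69, BXD80 or BXD99 (up to 0.0970), *H2-T24* without BXD56, BXD62, BXD80, BXD99 or BXD103 (up to 0.0794), *Ddx39b* without BXD62, BXD69, BXD79 or BXD103 (up to 0.0683) and *Pax4* without BXD50, BXD56, BXD70, BXD80, BXD87 or BXD103 (up to 0.0669). For *Dnahc8*, *Rsph3b* and *Riok2* the adjusted p without single strains reached 0.138, 0.112 and 0.102.

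The parental arrays, which are not in the fit, were set beside these differences. Of the 38 called probe sets, 36 had the same sign for DBA/2J minus C57BL/6J as for high minus low (94.7%), against 50.3% of all probe sets tested. All 27 on chromosome 17 shared it. The exceptions were *Pax4*, at -0.22 between the groups and 0.25 between the parents, and an unnamed probe set at 0.67 and -0.75. *Pax4*, a transcription factor of pancreatic islet cells encoded on chromosome 6, lay near the background at 7.94. On chromosome 17 the shared sign included small parental differences, at -0.02 for *Tsc2*, -0.08 for *Rnps1*, 0.11 for *Ppp1r11* and -0.14 for *Eci1*. For *Rnps1*, C57BL/6J at 9.95 lay below all low strains, the lowest of which was at 10.02. Each parent was measured on 1 array, so the parental differences have no replicate check.

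Strains were followed along the chromosome at the called probe sets whose parents lay at least 1 unit apart. These probe sets had been called because they differ between the *H2-Ea-ps* groups, which largely fixes a high agreement, so the counts are a description that shows which strains depart. *H2-Q10* put 34 of 35 strains on the same parental side as *H2-Ea-ps*, the exception being BXD62, and *Abhd16a* (the called probe set) also 34 of 35, the exception being BXD99. The dimmer probe set of *Gm10499*, with a mean below background, gave 33 of 35, *9030025P20Rik* 30 of 35, *Gm3417* 28 of 35 and *Clic1* 27 of 35. For *9030025P20Rik* all 11 high strains lay on the DBA/2J side, and the 5 strains on the other side than *H2-Ea-ps* were all low strains. *Glo1*, whose parents differed by 0.68 and so by less than 1 unit, gave 30 of 35, with the high strains BXD62, BXD70, BXD79 and BXD87 on the C57BL/6J side and the low strain BXD98 on the DBA/2J side. BXD98 was thus on the DBA/2J side at *9030025P20Rik* and *Glo1* and low for *H2-Ea-ps*. A strain near a midpoint can fall on either side by array error, and these sides are not genotypes.

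**Figure D4:**
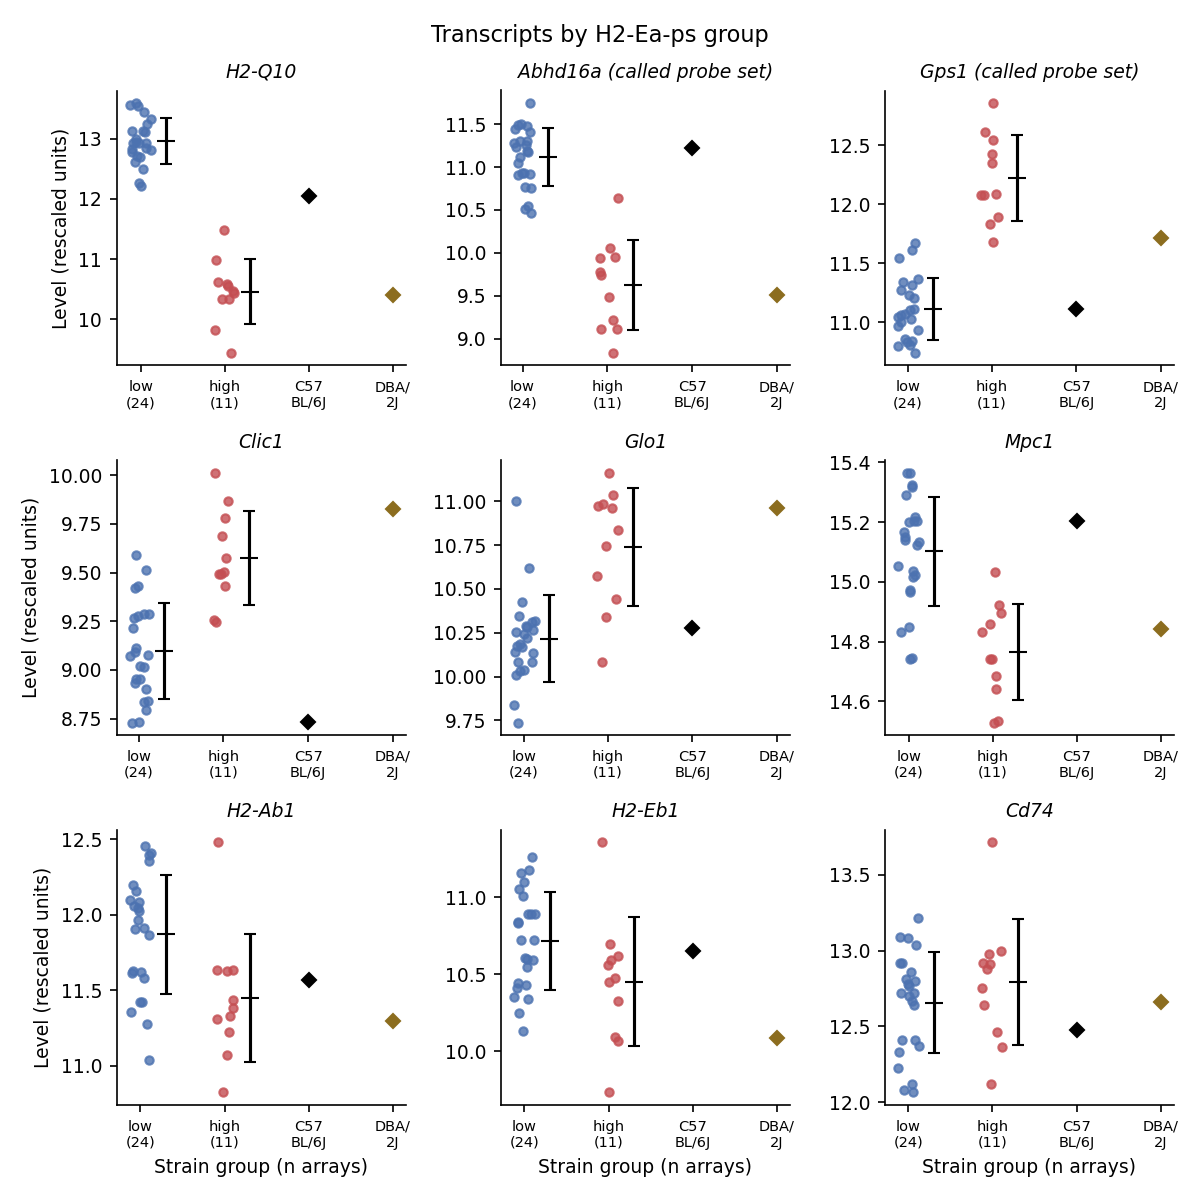
Level in rescaled units (vertical axes) of 9 transcripts in the 24 low and 11 high strains (1 point per strain, bars for mean and SD) and in the 2 parents (diamonds). *H2-Q10* and the called *Gps1* probe set separate the groups, *Abhd16a* does so except for BXD99, *Clic1*, *Glo1* and *Mpc1* overlap, and *H2-Ab1*, *H2-Eb1* and *Cd74* show wide overlap.

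None of the 11 genes of MHC class II presentation passed the adjusted threshold, against 0.0923% of all probe sets. In limma 3 of them had an unadjusted p under 0.05, all lower, where 2.47% of all probe sets were lower at that level, and in the methods' t-test 4 had, of which 0 passed after adjustment. The 3 were the other classical chains. *H2-Ab1*, the beta chain of H2-A, ran from 10.82 to 12.48 in the high strains (median 11.38) and from 11.04 to 12.46 in the low strains (median 11.94). The highest value of the high strains was that of BXD80 alone, the other 10 lay at 11.63 or lower, and 15 of the 24 low strains lay above these. The difference was -0.42 (95% interval -0.70 to -0.14; limma, adjusted p = 0.853). *H2-Aa*, its alpha chain, differed by -0.35 (95% interval -0.62 to -0.08) and *H2-Eb1*, the partner of the H2-E alpha chain, by -0.27 (95% interval -0.52 to -0.02). *Cd74*, the invariant chain that escorts all class II molecules, differed by 0.14 (95% interval -0.12 to 0.40), and *Ciita*, the master activator of class II transcription, by 0.03 (95% interval -0.13 to 0.18). Over the list 6 genes had lower and 5 higher values, with a median of -0.11, against -0.005 over all probe sets. 7 of the 11 genes lay above background, and *H2-Eb2*, *H2-Oa*, *H2-DMb1* and *H2-DMb2* did not. In whole tissue, fewer immune cells, less RNA per cell and a sequence difference between the parental alleles under the probes cannot be told apart.

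Among the high strains, the level of *H2-Ea-ps* moved with the other class II transcripts. Pearson's r over the 11 strains was 0.97 with *Cd74* (Spearman's rho 0.88), 0.94 with *H2-Eb1* (rho 0.81), 0.89 with *H2-Ab1* (rho 0.76), 0.85 with *H2-Aa* (rho 0.66) and 0.82 with *Ciita* (rho 0.64). Of the high strains, BXD80 was highest for *H2-Ea-ps*, *H2-Eb1*, *H2-Ab1* and *Cd74*, and BXD87 was lowest for all 4. Without these 2 strains, the farthest from the median of *H2-Ea-ps*, r was 0.90 with *Cd74*, 0.82 with *H2-Eb1*, 0.65 with *H2-Ab1*, 0.67 with *H2-Aa* and 0.53 with *Ciita*. The relations with *H2-DMa* (r = 0.57) and *H2-Ob* (r = 0.22) were weaker, and that with *H2-DMa* turned to -0.33 without the 2 strains and so rests on them. The mean of 8 T cell markers also moved with *H2-Ea-ps* (r = 0.89, rho 0.77), as did that of 7 dendritic cell markers (r = 0.84, rho 0.72), and without the same 2 strains r was 0.79 and 0.75. B cell markers (r = 0.70, rho 0.50) and macrophage markers (r = 0.71, rho 0.52) moved with it less closely, with r of 0.58 and 0.38 without the 2 strains. Only 2 of the 8 T cell, 3 of the 7 dendritic cell and 1 of the 8 B cell markers lay above background. All 8 macrophage markers did. Among the 24 low strains, where *H2-Ea-ps* is at background, r was 0.04 with *Cd74*, 0.20 with *H2-Eb1* and 0.20 with *H2-Ab1*. These values are a description without a test, since *H2-Ea-ps* itself placed the strains in the groups and the 11 relations in each group were picked with the data in view. The difference between the groups in these correlations was not tested.

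**Figure D5:**
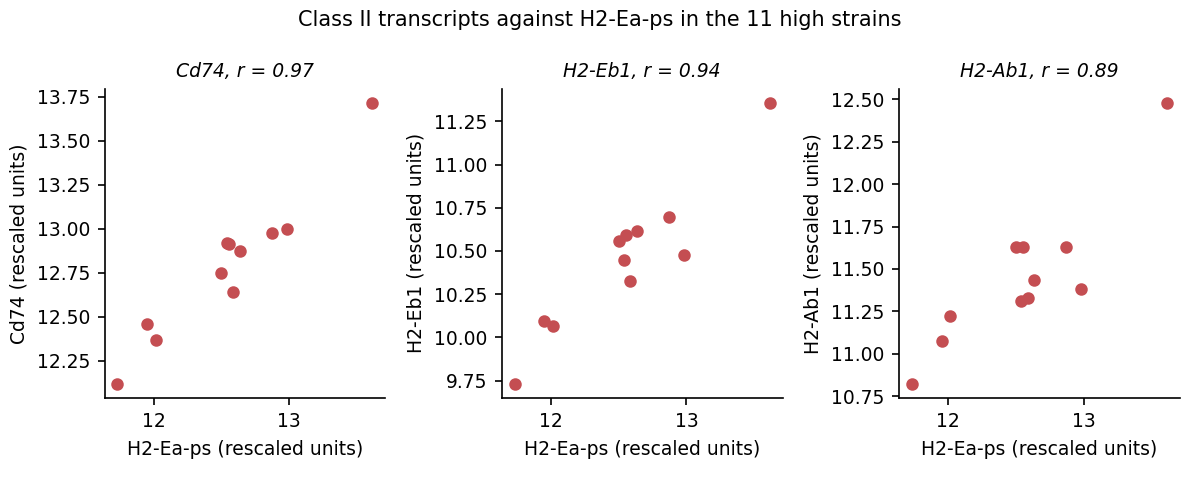
Level of *Cd74*, *H2-Eb1* and *H2-Ab1* (vertical axes, rescaled units) against that of *H2-Ea-ps* (horizontal axes, rescaled units) in the 11 high strains, 1 point per strain. The points rise together, with r of 0.97, 0.94 and 0.89, and BXD80 at the upper right and BXD87 at the lower left lie farthest out.

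Since *Cd74* varied between strains of both groups, from 12.06 to 13.71, the comparison was also made at equal *Cd74*, a fit chosen after the data had been seen. With *Cd74* as a covariate, *H2-Ab1* was lower in the high strains by -0.56 ± 0.06 (SE; limma, adjusted p = 7.49e-08), *H2-Aa* by -0.48 ± 0.06 (adjusted p = 2.90e-05) and *H2-Eb1* by -0.39 ± 0.06 (adjusted p = 0.000172). In the other alternatives the adjusted p of *H2-Ab1* lay between 0.225, with the B and T cell lists as covariate, and 0.964, without the strains nearest to the threshold. *H2-DMa*, *H2-DMb1* and *H2-DMb2*, which form the H2-DM molecule that loads peptides, were not called at equal *Cd74*, nor were *H2-Oa*, *H2-Ob*, *H2-Eb2* and *Ciita*. This fit called 39 probe sets in all, of which 32 were shared with the fit without *Cd74*, and of the 7 others 5 were on chromosome 17. DBA/2J minus C57BL/6J was -0.27 for *H2-Ab1*, -0.15 for *H2-Aa* and -0.57 for *H2-Eb1*. Whether a sequence difference between the parental alleles under the probes enters these values was not tested.

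For the other MHC genes, most did not pass the threshold. Of 23 genes of class I and peptide loading, 21 were on the array, 1 was higher in the high strains (*H2-T24*; 0.0559% of all probe sets) and 1 was lower (*H2-Q10*; 0.0364% of all), with a median of -0.004 against -0.005 over all. By unadjusted p under 0.05 in limma, 5 of the 21 were higher and 4 lower, against 1.97% and 2.47% of all probe sets. *H2-T22*, a class I molecule seen by gamma-delta T cells, lay just outside the threshold at 0.53 (limma, adjusted p = 0.0909), from 10.97 to 12.51 in the high strains and from 10.70 to 11.80 in the low strains. *H2-K1*, a classical class I heavy chain, differed by 0.06 (95% interval -0.13 to 0.24) and *B2m*, the light chain, by 0.10 (95% interval -0.03 to 0.24). *H2-Q7*, next to *H2-Q10* in gene order, had a difference of -0.32 (limma, adjusted p = 0.853). Of 33 class III genes and neighbours, 32 were on the array, 2 were higher (*C4a* and *Clic1*; 0.0559% of all probe sets) and 0 lower (0.0364% of all), with a median of 0.04. By unadjusted p under 0.05 in limma, 4 of the 32 were higher, against 1.97% of all, and 0 lower. This list did not hold *Abhd16a*, with its called probe set at -1.49, or *Ddx39b*, with its called probe set at 0.43. *Nfkbil1* (-0.34, adjusted p = 0.0681 in limma) and *BC051142* (-0.28, adjusted p = 0.0885) lay just outside the threshold. The lists were written with earlier results of these data known.

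Outside the MHC no list had a called gene, in limma or by the methods' t-test. The interferon response list, genes that cells switch on after virus or cytokine signals, had 16 of 18 values higher in the high strains with a median of 0.12. By unadjusted p under 0.05, 5 of 18 were higher, against 1.97% of all probe sets, and these included the interferon-gamma responsive GTPases *Iigp1* (0.61), *Igtp* (0.51), *Gbp2* (0.38) and *Gbp3* (0.33). *Iigp1* ran from 9.23 to 12.15 in the high strains and from 9.20 to 11.02 in the low strains, so the groups overlapped widely. The adjusted p of the list's genes was 0.856 or more. T cell markers had 7 of 8 values higher (median 0.10, 2 at an unadjusted p under 0.05), B cell markers 7 of 8 lower (median -0.07, 1 at an unadjusted p under 0.05), and the medians of dendritic cell (0.02) and macrophage markers (0.003) were near 0. Most lymphocyte and dendritic cell markers were dim, with 1 of 8 B cell, 2 of 8 T cell and 3 of 7 dendritic cell markers above background. Of 22 segments of the T cell receptor beta chain, 1 was found by name, *Trbv13-2*, below background and at -0.15.

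Tissue markers did not separate the groups, although the mean levels of skeletal muscle transcripts were higher in the high strains. Brown fat markers were abundant in every strain, with list means from 12.55 to 13.35 in the high and from 12.32 to 13.25 in the low strains, and *Ucp1*, the uncoupling protein that makes heat in brown fat, differed by -0.03 (95% interval -0.20 to 0.13) at about 15 units. None of the 10 brown fat, 5 white fat or 8 liver genes was called or had an unadjusted p under 0.05. All 10 skeletal muscle genes had a higher mean in the high strains, with a median difference of 0.53 and none called. Their list mean ran from 11.61 to 13.01 in the high strains and from 9.56 to 13.35 in the low strains. The medians of this list mean lay closer together, at 12.44 in the high and 12.24 in the low strains. With the muscle list as a covariate 27 probe sets were called, 25 of them shared with the fit without it, and *Brp44l*, *Eci1*, *Dnahc8*, *Rsph3b*, *Riok2*, *C4a*, *H2-T24*, *Pax4* and *Ddx39b* lost the call at adjusted p between 0.0506 and 0.162. The part of muscle tissue in these differences was not tested further. *Ahr*, the gene at the centre of the study, was at 9.40 ± 0.35 (SD, n = 11) in the high strains and 9.42 ± 0.36 (SD, n = 24) in the low strains, a difference of -0.02 ± 0.13 (SE) that was not called in limma.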

How the data were processed

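The values are scores, deposited by the authors in a single table with 41345 probe sets and 37 arrays (1 per strain), and each array was rescaled to a mean of 8 and an SD of 2. Affymetrix Expression Console is named in the submitters' processing notes. The summary method, log base and build are not given in the sources used here. The tests had been planned for log-scale values and were run on the scores as they are. The members, lists and tests were chosen with earlier results of these data known.

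Control probe sets (190) and *H2-Ea-ps* were left out, which left 41154. Of 28392 named probe sets, 27003 matched RefSeq symbols of GRCm38.p6 (95.1%), which served for chromosomes, gene order and promoters. High and low strains were compared with limma 3.58.1 (lmFit, eBayes) in R 4.3.3, with Benjamini-Hochberg adjustment and an adjusted p threshold of 0.05. Parents entered no fit except as an alternative. The comparison by limma was tested on simulated arrays. Background was the 95th percentile of 1128 olfactory receptor probe sets. Arrays have no read depth, so their number and the background limit the precision. No batch is given in the labels.

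Named are *H2-Ea-ps*, *Ahr*, genes of the fixed lists, the 15 largest called differences in each direction, called genes within 20 genes of *H2-Ea-ps* and the 10 smallest adjusted p off chromosome 17. *Nfkbil1* and *BC051142* were named after their values were seen, as genes of chromosome 17 near the threshold, as were unnamed probe sets. *2610035D17Rik* on chromosome 11 (-0.48; adjusted p = 0.0793 in limma) lay nearer to the threshold than *BC051142*. So did an unnamed probe set (-0.64, adjusted p = 0.0874 in limma). For 1 gene of the lists no single value is reported here; list counts contain it. The brightest probe set stood for a gene unless only another was called. Alternatives were other scalings, a background filter, the methods' t-test, a variance trend, the continuous level, covariates, sample and threshold choices, the mean of probe sets, each strain left out and, chosen after seeing the data, *Cd74* as covariate.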

Additional observations from a re-analysis of the deposited data

How the results depend on the processing

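The number of called probe sets on other chromosomes, 2, was 1 with probe sets above background only, 1 with both parents added, 1 with BXD70 left out, 1 without the strains nearest to the threshold, 1 at an adjusted p of 0.01, 4 with *H2-Ea-ps* as a continuous level and 4 with *Cd74* as covariate. *Cd74* as covariate also moved the called class II genes from 0 to 3. At an adjusted p of 0.01, which by construction lists fewer, 15 were higher, 6 lower, 14 on chromosome 17 and 4 within 100 genes, and a window of 50 genes held 6. Without single strains, the lower probe sets ranged from 8 to 18 (9 without BXD62, 8 without BXD103), those within 100 genes from 7 to 13 (7 without BXD62 and 7 without BXD103), and those on other chromosomes from 1 to 4 (4 without BXD55, 1 without BXD56, BXD70, BXD87 or BXD103). The higher ones ranged from 19 to 25 and those on chromosome 17 from 18 to 30. Apart from the settings above, the cause was not tested. The methods' t-test gave 1816 at its unadjusted threshold and 32 after Benjamini-Hochberg, 31 of them shared. Of 384 values of single genes under alternatives, 351 kept direction and side of the threshold, 30 lost the call (9 with the muscle list, 4 with the mean of probe sets), 3 gained it and 0 reversed, and 13 of 24 genes were called in each of these single-gene fits and without any single strain. Single genes were not followed at an adjusted p of 0.01 or with the continuous level. No paired analysis was possible because each strain has 1 array and the labels carry no replicate numbers. For genes near background, such as *C4a* and *Dnahc8*, signal over background limits what a difference can show.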
